A study of Mus musculus with 10 samples.

Results

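The kidney endothelial genes are 10 genes used as markers of blood vessel lining cells, namely Pecam1, Cdh5, Kdr, Flt1, Tek, Eng, Plvap, Emcn, Ehd3 and Vwf. They were chosen by name as vascular endothelial markers, and are 10 of the 54532 genes in the deposited table. Bulk RNA sequencing (RNA-seq) was done on obstructed kidneys of wild-type (WT) male C57BL/6 mice aged 8 weeks, taken 14 days after the left ureter was ligated (unilateral ureteral obstruction, UUO). The PBS-treated group, labelled control, held 5 mice. The 5 DMM-treated mice received dimethyl malonate, an inhibitor of succinate dehydrogenase, at 40 mg/kg into the peritoneum every other day. Every kidney in both groups was obstructed, so the values compare DMM with PBS within obstruction and do not show what obstruction itself did to the vessels.

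Endothelial cells line the arteries, the glomerular tufts and the peritubular capillaries that supply the tubules. They are held together by junction proteins, survive on VEGF and angiopoietin signals from neighbouring cells, and differ between vascular beds in their fenestrae and surface proteins. Loss of peritubular capillaries, called rarefaction, accompanies fibrosis of the obstructed kidney, and the level of such markers in whole tissue is often read as a measure of the microvasculature.

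None of the 10 endothelial genes passed the test between DMM-treated and PBS-treated UUO kidneys, and the values of the groups overlapped for each of them. Over all 10 libraries, the median log2 fold change (DMM over PBS) of the endothelial genes was 0.05, against 0.02 for all genes tested. Their median absolute log2 fold change was 0.12, against 0.20 for all genes tested. The largest differences were in Flt1, with a log2 fold change of 0.46, and in Vwf, with -0.22. In bulk RNA, fewer endothelial cells and less of these transcripts per cell cannot be told apart.

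Library totals ran from 15722527 to 19475833 counts on genes, and the endothelial genes had between 316 counts (Vwf in DMM replicate 2) and 6307 counts (Eng in DMM replicate 3) in a library. All 10 passed the filter on low counts, among 16505 genes tested. Calls required a fold change above 1.5 and a p, adjusted over all tested genes by the Benjamini-Hochberg method, under 0.05. By edgeR's quasi-likelihood F test, 0 of the 10 endothelial genes were called, and the share of all tested genes called was 0%. At an unadjusted p under 0.05 with the same fold change, 0 of 10 endothelial genes passed, against 993 of all genes tested (6.02%). DESeq2 called 0 of the 10 endothelial genes as well, with 14 genes higher and 36 lower across the genome (0.162% of genes). The ranges of the groups did not overlap for 322 genes (1.95%), and none of the 10 was among them.

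The libraries were not all alike. By the mean squared difference per gene relative to counting noise, DMM replicate 1 was closer to every PBS kidney (7.72 to 48.0) than to any other DMM kidney (50.1 to 184). PBS replicate 3 was closer to DMM replicates 2, 3 and 5 (22.1 to 35.5) than to any other PBS kidney (36.03 to 81.2). Both are in the comparison over 10 libraries and its 0% share. The group means that the authors deposited gave no weight to PBS replicate 3 or DMM replicate 1, and the same test on the remaining 8 libraries called 1042 of 16550 genes (6.3%). It called 0 of the 10 endothelial genes, whose median log2 fold change was then 0.01 against 0.02 for all genes tested. DMM replicate 4 stood apart from the other 9 libraries, being the lowest of the 10 in 35.7% and the highest in 33.6% of tested genes, where no other library reached more than 12.4% either way. It had counts on 20029 genes, against 22898 to 24083 in the others. Leaving this library out of the 8 brought the genome-wide count to 2410 of 16828 genes (14.3%), and again 0 of the 10 endothelial genes were called, with adjusted p from 0.154 to 0.810 in edgeR. Values without DMM replicate 4 are given beside many of the genes below.

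Pecam1 and Cdh5, the junction genes, had similar levels in both groups. Pecam1 (ENSMUSG00000020717, chromosome 11, 106654217 to 106750628, minus strand, mm10) encodes CD31, an adhesion molecule at endothelial cell contacts that leukocytes and platelets also carry. Normalised read counts are given as CPM, each count relative to its library total after TMM scaling. Pecam1 CPM was 146, 197, 193, 230 and 167 in PBS replicates 1 to 5 and 207, 162, 183, 227 and 187 in DMM replicates 1 to 5. PBS replicate 1 was the lowest and PBS replicate 4 the highest of the 10, so that the DMM range lay inside the PBS range. The group means were 187 ± 31.8 CPM with PBS and 193 ± 24.8 CPM with DMM (SD, n = 5 each). The log2 fold change of Pecam1 was 0.05 (95% interval -0.26 to 0.36, edgeR adjusted p = 0.902). Cdh5 (ENSMUSG00000031871, chromosome 8, 104101625 to 104144511, plus strand) encodes VE-cadherin, the cadherin of endothelial adherens junctions, and is largely restricted to endothelium. Its CPM values were 109, 162, 123, 217 and 134 with PBS and 159, 126, 130, 166 and 138 with DMM. The spread came mainly from the PBS kidneys, where replicate 4 was again the highest and replicate 1 the lowest of all libraries. Cdh5 had a log2 fold change of -0.05 (95% interval -0.45 to 0.35, edgeR adjusted p = 0.914).

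Kdr, Flt1 and Tek encode the receptor tyrosine kinases through which endothelial cells read VEGF and angiopoietins. For these receptors, DMM replicate 4 lay above all other libraries, and the remaining DMM kidneys lay among or close to the PBS kidneys. Kdr (ENSMUSG00000062960, chromosome 5, 75932827 to 75978458, minus strand) encodes VEGFR2, the main signalling receptor for VEGF-A. Kdr CPM was 77.7, 85.8, 82.8, 91.3 and 84.5 in PBS kidneys and 88.8, 84.3, 83.4, 132 and 95.6 in DMM kidneys. Apart from DMM replicate 4, the libraries lay between 77.7 and 95.6 CPM. The log2 fold change of Kdr was 0.20 (95% interval -0.10 to 0.49, edgeR adjusted p = 0.568) and, without DMM replicate 4, 0.06.

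Flt1 (ENSMUSG00000029648, chromosome 5, 147561604 to 147726011, minus strand) encodes VEGFR1, which binds VEGF-A tightly and, in a soluble form, acts as a decoy. Flt1 CPM was 82.9, 101, 98.8, 115 and 82.8 with PBS and 109, 87.0, 108, 246 and 112 with DMM. DMM replicate 4 had 2.37 times the mean of the other DMM kidneys, all of which lay within the PBS range. Over all 10 libraries the log2 fold change of Flt1 was 0.46 (95% interval -0.10 to 1.03, edgeR adjusted p = 0.524). Without DMM replicate 4 it was 0.12. Flt1 was also the only one of the 10 genes to pass an unadjusted p with the fold threshold in any of 31 alternative fits, and it did so in the 2 that left out DMM replicate 2, where its log2 fold changes were 0.60 and 0.70 (edgeR adjusted p = 0.520 over 9 libraries and 0.229 over 7). Of all genes tested, 2.34% and 7.04% passed in that direction in those fits.

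Tek (ENSMUSG00000006386, chromosome 4, 94739289 to 94874976, plus strand) encodes Tie2, the angiopoietin receptor that keeps endothelium quiescent when bound by angiopoietin 1. Tek CPM was 61.7, 64.5, 71.1, 73.8 and 60.1 with PBS and 70.8, 66.9, 56.4, 110 and 66.0 with DMM. DMM replicate 3 was the lowest and DMM replicate 4 the highest library, with all PBS kidneys between them. For Tek, the log2 fold change was 0.16 (95% interval -0.21 to 0.53, edgeR adjusted p = 0.706), and without DMM replicate 4 it changed sign to -0.03.

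Eng, the BMP co-receptor, was the most abundant of the 10 in CPM and among the least variable. Eng (ENSMUSG00000026814, chromosome 2, 32646595 to 32682669, plus strand) encodes endoglin, which presents BMP9 and BMP10 to the receptor ALK1 and is also made by some stromal and myeloid cells. Its CPM values were 272, 333, 304, 312 and 341 with PBS and 356, 291, 357, 285 and 321 with DMM. DMM replicates 1 and 3 lay above all PBS kidneys, and DMM replicates 2, 4 and 5 lay within the PBS range. Eng had a log2 fold change of 0.04 (95% interval -0.20 to 0.29, edgeR adjusted p = 0.883) and -0.01 over the 8 libraries. The 3′ end of Eng overlaps Fpgs on the opposite strand, and Fpgs had 221 to 921 counts where Eng had at least 4615. Whether counting used strand is not given in the sources used here, so reads in the shared stretch cannot be assigned.

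Plvap and Emcn mark capillary endothelium. Plvap (ENSMUSG00000034845, chromosome 8, 71497765 to 71511752, minus strand) encodes the protein of the diaphragms that close fenestrae, typical of peritubular capillaries and scarce in mature glomerular ones. Plvap CPM was 231, 262, 299, 273 and 238 with PBS and 291, 245, 311, 95.2 and 297 with DMM. Here DMM replicate 4 was the lowest library, at 0.333 times the mean of the other DMM kidneys, while those others lay between 245 and 311 CPM and overlapped the PBS range. Plvap had a log2 fold change of -0.07 (95% interval -0.65 to 0.51, edgeR adjusted p = 0.921), and without DMM replicate 4 it was 0.13. Plvap overlaps Gtpbp3 on the opposite strand, which had 202 to 534 counts where Plvap had at least 1576. Emcn (ENSMUSG00000054690, chromosome 3, 137341067 to 137432185, plus strand) encodes endomucin, a sialomucin of capillary and venous endothelium. Emcn CPM was 68.1, 79.9, 82.6, 91.5 and 74.3 with PBS and 84.7, 72.9, 70.0, 81.3 and 74.7 with DMM. No library stood apart for Emcn, and the DMM kidneys lay inside the PBS range. Its log2 fold change was -0.05 (95% interval -0.28 to 0.18, edgeR adjusted p = 0.865), the narrowest interval of the 10 genes.

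Ehd3 and Vwf mark different vascular beds. Ehd3 (ENSMUSG00000024065, chromosome 17, 73804134 to 73832094, plus strand) encodes a membrane trafficking protein enriched in glomerular endothelium. Ehd3 CPM was 44.9, 46.5, 44.9, 38.5 and 46.2 with PBS and 45.0, 44.1, 54.6, 57.7 and 53.1 with DMM. DMM replicates 3, 4 and 5 were above every PBS kidney, and DMM replicates 1 and 2 were among them. Ehd3 had the smallest p of the 10 genes, with a log2 fold change of 0.20 (95% interval -0.03 to 0.44, unadjusted p = 0.0804, edgeR adjusted p = 0.507), and without DMM replicate 4 the log2 fold change was 0.16. In 4 of 31 alternative fits the interval of Ehd3 lay above 0, with log2 fold changes from 0.24 to 0.32 (edgeR adjusted p from 0.142 to 0.520). These left out DMM replicate 1, left out DMM replicate 2 (of the 10 or of the 8 libraries) or used offsets for GC and length on the 8. Of all genes tested, 3130 of 16760 had an unadjusted edgeR p under 0.05, in either direction, without DMM replicate 1. Without DMM replicate 2 the counts were 1598 of 16790 (of the 10) and 3590 of 16923 (of the 8). With offsets on the 8 the count was 4277 of 16536.

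Vwf (ENSMUSG00000001930, chromosome 6, 125546774 to 125686679, plus strand) encodes von Willebrand factor, a clotting protein stored by endothelium of larger vessels and by platelets. Vwf CPM was 30.1, 41.1, 37.6, 46.2 and 33.2 with PBS and 32.8, 19.9, 34.4, 37.5 and 36.6 with DMM. DMM replicate 2 was the lowest library, and the other DMM kidneys lay within the PBS range. For Vwf, the log2 fold change was -0.22 (95% interval -0.62 to 0.17, edgeR adjusted p = 0.622), and -0.08 without DMM replicate 2.

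**Figure D1:**
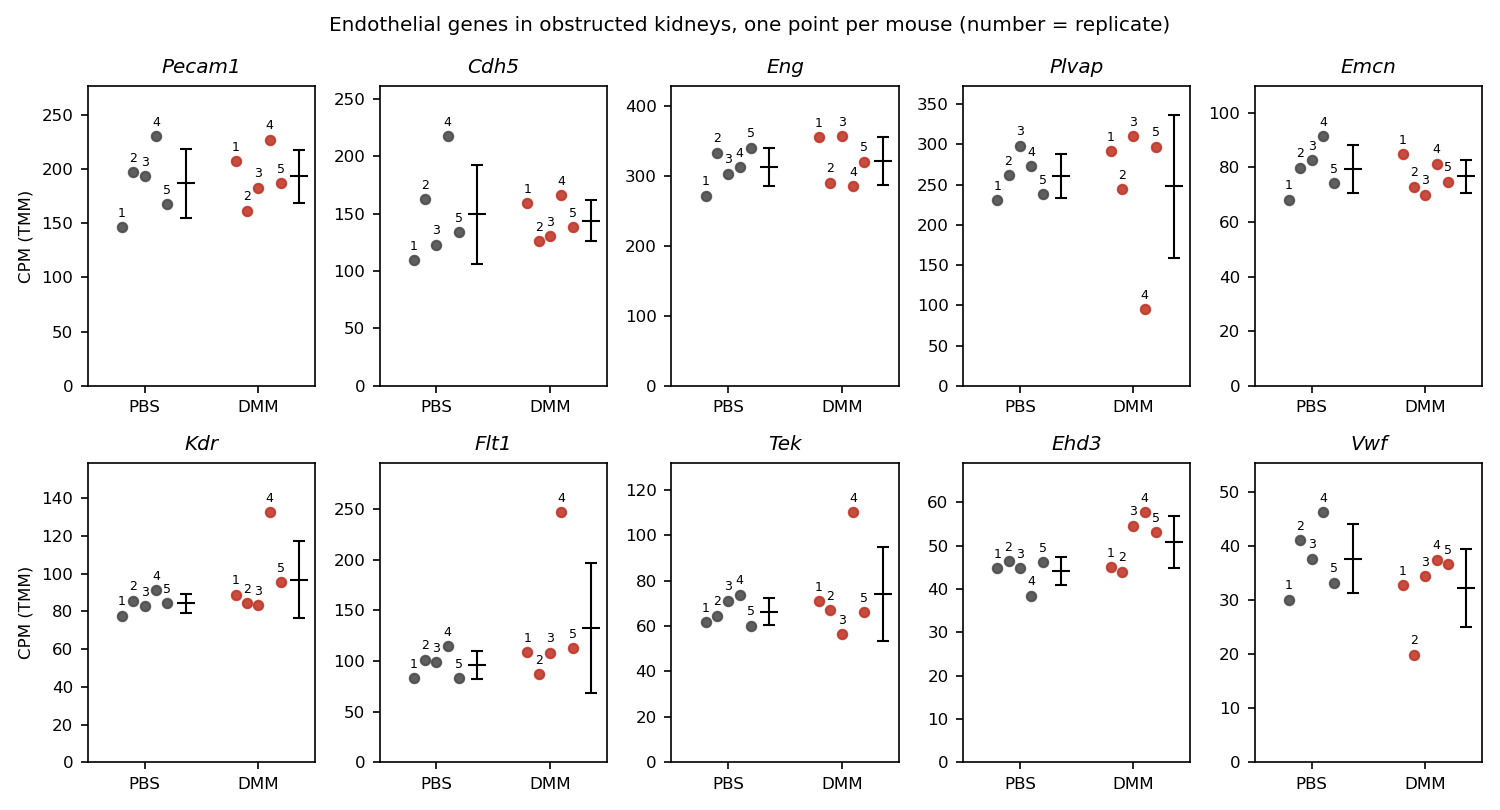
CPM (TMM-scaled, vertical axis from 0) of the 10 endothelial genes in PBS and DMM kidneys, with a numbered point per mouse and, beside the points, the mean and SD of each group (n = 5). DMM replicate 4 lies above the other libraries for Kdr, Flt1, Tek and Ehd3 (246 CPM for Flt1) and below them for Plvap (95.2 CPM), and the groups overlap for every gene.

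The intervals show how large a difference these libraries still allow. Over all 10 libraries, the 95% interval lay within a fold change of 1.5 in both directions for 7 of the 10 endothelial genes. The exceptions were Flt1, with an upper bound of 1.03 on the log2 scale, Plvap, with a lower bound of -0.65, and Vwf, with a lower bound of -0.62. Without DMM replicate 4, the interval of 9 of the 10 lay within that fold change, with Vwf (lower bound -0.69) outside. Over the 8 libraries, with fewer mice, 5 of the 10 did. These intervals cover each gene singly and are not adjusted for the number of genes.

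**Figure D2:**
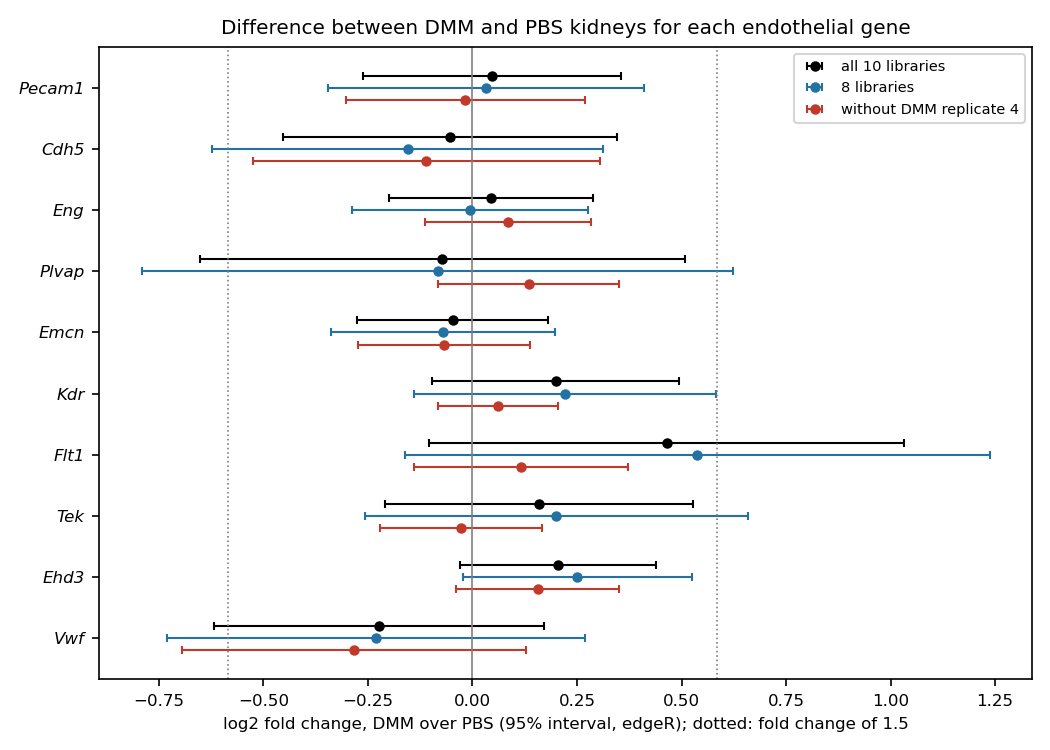
Log2 fold change (horizontal axis, DMM over PBS) of each endothelial gene with its 95% interval in edgeR, over all 10 libraries, over the 8 libraries and without DMM replicate 4, with dotted lines at a fold change of 1.5. Every interval includes 0, and those of Flt1 and Plvap are narrower without DMM replicate 4.

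The summed level of the endothelial genes differed more between mice than between treatments. The summed CPM of the 10 genes was 1124, 1373, 1336, 1489 and 1261 in PBS kidneys and 1443, 1198, 1388, 1439 and 1381 in DMM kidneys. The means were 1317 ± 135 and 1370 ± 100 (SD, n = 5 each), a difference smaller than either SD. The sum gives most weight to abundant genes, with PBS means of 312 CPM for Eng, 260 for Plvap and 187 for Pecam1, against 37.6 for Vwf. In DMM replicate 4, low Plvap (95.2 CPM) and high Flt1 (246 CPM) entered the sum in opposite directions. PBS replicate 1 was the lowest of the 10 libraries for 5 of the genes, and PBS replicate 4 was the highest for 4 of them (Pecam1, Cdh5, Emcn and Vwf). Among the PBS kidneys, the coefficient of variation was smallest for Kdr (5.86%) and largest for Cdh5 (28.7%).

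The way DMM replicate 4 departed from the other DMM kidneys went with the base composition of the transcripts and with gene length. Across 16491 tested genes, its deviation from the mean of the other DMM libraries had a Pearson r of -0.458 with transcript GC content and 0.377 with log2 gene length, where genes are not independent replicates. The fifth of genes lowest in GC had a median deviation of 0.59 on the log2 scale, and the fifth highest in GC had -0.72. Plvap, at 60.6% GC and a deposited gene length of 1987 bases, deviated by -1.58. Flt1, at 50.5% GC and 13504 bases, deviated by 1.25. Tek (47.1% GC) deviated by 0.76 and Kdr (49.4% GC) by 0.59. Emcn, which has the lowest GC of the 10 (40.7%), deviated by 0.11. The part of GC content and length in the values of DMM replicate 4 was not tested. Offsets for GC and length in the fit were an alternative chosen after seeing the data. With them, the log2 fold changes of Flt1 (0.26), Kdr (0.10), Tek (0.10), Plvap (0.05), Pecam1 (0.02) and Cdh5 (-0.0008) were closer to 0 than without them. Those of Eng (0.16), Emcn (-0.13) and Vwf (-0.28) were farther from 0, and that of Ehd3 stayed at 0.20.

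Other endothelial genes also deviated in both directions in this library, but not in the same proportion. All of the 10 but Plvap and Eng deviated upward. DMM replicate 4 was the highest library for 4 and the lowest for 1 of the 10. Among 28 further endothelial genes it was the highest for 7 and the lowest for 9. Of the 10 genes and these 28 together, 20 of 38 deviated upward in DMM replicate 4. Across the 38 the Pearson r was -0.683 with GC and 0.548 with log2 length. It was not taken for the 28 alone. Calcrl, the receptor subunit for adrenomedullin, deviated by 1.77, and Ptprb, a phosphatase that acts on Tie2, by 1.29. Egfl7, a secreted vascular matrix protein, deviated by -1.72, and Cldn5, a tight junction claudin, by -1.55. These 4 genes were named after their values were seen.

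**Figure D3:**
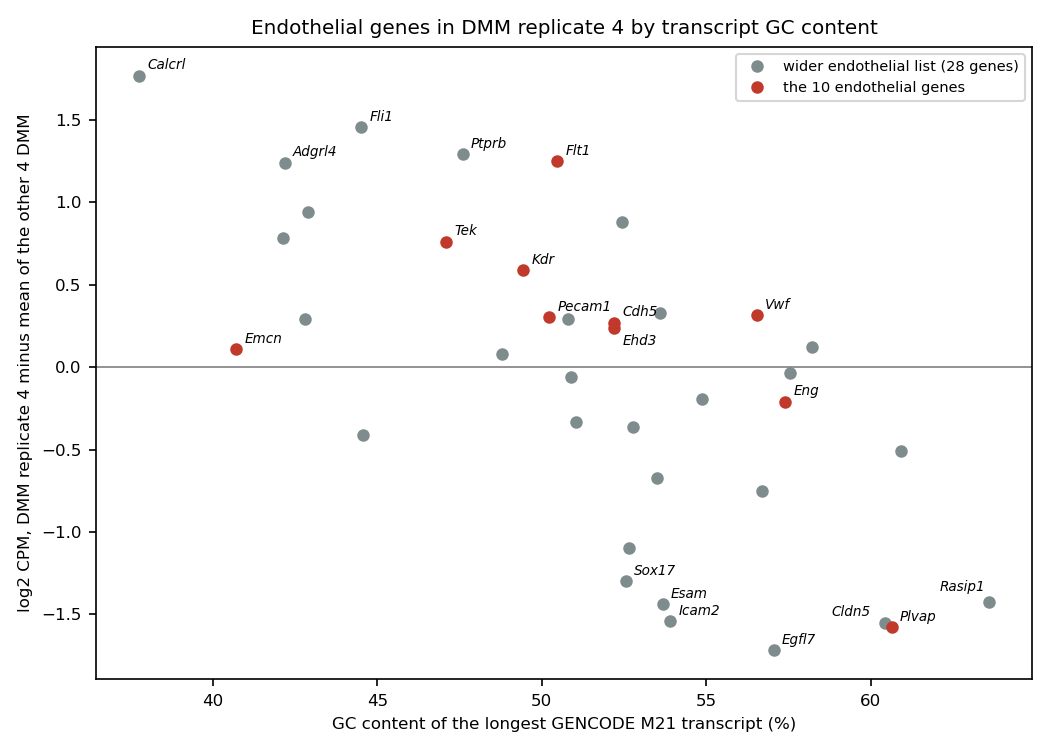
Difference in log2 CPM between DMM replicate 4 and the mean of the other 4 DMM kidneys (vertical axis) against transcript GC content in percent (horizontal axis), with a point for each of the 10 endothelial genes (red) and 28 further endothelial genes (grey). Calcrl (1.77), of low GC, has the highest value and Plvap (-1.58), of high GC, is among the lowest, and some genes run the other way, such as Clec14a (-0.41 at 44.6% GC) and Vwf (0.31 at 56.5% GC).

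Ratios between endothelial genes, which do not depend on library scaling, also set DMM replicate 4 apart. The ratio of Plvap to Pecam1 CPM ran from 1.18 to 1.58 in PBS kidneys. It ran from 1.41 to 1.70 in DMM replicates 1, 2, 3 and 5, and was 0.420 in DMM replicate 4. The ratio of Flt1 to Pecam1 ran from 0.495 to 0.567 in PBS kidneys and from 0.525 to 0.601 in those DMM replicates, and was 1.09 in DMM replicate 4. The ratio of Kdr to Pecam1 was 0.397 to 0.531 with PBS and 0.430 to 0.584 with DMM, so the groups overlapped in each of these ratios.

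Levels can be compared between genes in the deposited FPKM, which divide by gene length. In PBS kidneys, Plvap had the highest mean level, 130 ± 13.5 FPKM, followed by Eng with 76.6 ± 6.74 FPKM (SD, n = 5). Cdh5 had 35.2 ± 10.2 FPKM and Pecam1 29.8 ± 5.08 FPKM, and their ranges overlapped. Emcn (14.5 ± 1.62 FPKM) and Tek (13.95 ± 1.25 FPKM) overlapped as well. Kdr followed with a mean of 9.28 FPKM, then Flt1 with 7.06 and Ehd3 with 6.68 FPKM, whose ranges overlapped, and Vwf was the lowest at 2.32 ± 0.394 FPKM. The range of each other neighbour in this order was separate in the PBS kidneys. In DMM kidneys the order of mean FPKM was the same but for Tek (15.6) and Emcn (14.1), which changed places, whereas without DMM replicate 4 their means (13.7 and 13.9) kept the PBS order. The order also rests on the deposited gene lengths. With CPM per kb of the longest transcript, chosen after seeing the data, Pecam1 (54.3) came before Cdh5 (37.4) in PBS kidneys, and Kdr and Tek were both at 14.2.

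Across the wider set of vessel genes, the counts were also low. Taken with the 10 endothelial genes, 8 vascular lists held 92 genes, of which 89 were tested, and edgeR called 0 of 89 over all 10 libraries and 0 of 89 over the 8, where it called 6.3% of all tested genes. DESeq2 on the 8 called 1 of them, Pi16, with a log2 fold change of -1.66 (DESeq2 adjusted p = 0.0473). Without DMM replicate 4 in the 8, edgeR called 2 of 89, Tbx3 and Vcam1, both lower, against 14.3% of all tested genes. Among 28 further endothelial genes, 0 were called, and the median log2 fold change was -0.01. The 3 with the smallest p were Ramp2, Ushbp1 and Adgrl4. Ramp2, which with Calcrl forms the adrenomedullin receptor, had CPM values of 26.5, 24.1, 28.6, 32.3 and 26.0 with PBS and 27.3, 22.2, 21.1, 13.5 and 21.4 with DMM. DMM replicate 4 was the lowest, and DMM replicate 1 lay among the PBS kidneys. Ramp2 had a log2 fold change of -0.38 (unadjusted p = 0.0453, edgeR adjusted p = 0.449) and, without DMM replicate 4, -0.26. The log2 fold change was -0.39 for Ushbp1 and 0.47 for Adgrl4, an adhesion receptor of angiogenic endothelium, and without DMM replicate 4 these were -0.23 and 0.13.

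Ligands and partners of Kdr, Flt1 and Tek gave no call either. Of 12 tested genes of the VEGF and angiopoietin pathways, 0 were called, with a median log2 fold change of -0.03. Vegfa, the ligand of Kdr and Flt1, had a log2 fold change of -0.01, with 89.9 to 134 CPM in PBS kidneys and 78.5 to 137 CPM in DMM kidneys. DMM replicate 4 was its lowest library, and the log2 fold change was 0.10 without that library and 0.05 over the 8. Pgf, a ligand of Flt1 but not of Kdr, had 2.28 to 8.57 CPM with PBS and 1.27 to 5.06 CPM with DMM. Its log2 fold change was -0.68 (edgeR adjusted p = 0.564), -0.50 without DMM replicate 4 and -1.17 over the 8 libraries (edgeR adjusted p = 0.171). Angpt1, which activates Tek, had a log2 fold change of 0.24, and Nrp2, a VEGF co-receptor, had -0.18 (edgeR adjusted p = 0.616 and 0.618). Without DMM replicate 4 these were 0.11 and -0.28, and over the 8 libraries 0.45 and -0.29. The ratio of Angpt2, the context-dependent antagonist of Tek, to Angpt1 was 1.51 to 2.65 with PBS. With DMM it was 1.04 in replicate 4 and 1.60 to 2.25 in the others.

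Eng acts with ALK1, encoded by Acvrl1, and with BMPR2. Of 16 genes of the BMP9, ALK1 and Notch pathways, 14 were tested and 0 were called, with a median log2 fold change of 0.01. Gdf2, which encodes BMP9, had 0 counts in every library, and Bmp10 had at most 5 counts in a library. Acvrl1 CPM was 58.0, 58.9, 53.4, 65.3 and 61.9 with PBS and 66.5, 50.6, 43.3, 48.3 and 42.6 with DMM. DMM replicates 2 to 5 were below every PBS kidney, and DMM replicate 1 was above them all. The log2 fold change of Acvrl1 was -0.24 (edgeR adjusted p = 0.513), and over the 8 libraries -0.40 (edgeR adjusted p = 0.0519), short of both the p and the fold threshold. Bmpr2 had a log2 fold change of 0.67 over 10 libraries and 0.14 without DMM replicate 4, which had 565 CPM of Bmpr2 against 170 to 186 in the other DMM kidneys. Id2, a target of BMP signalling, had 0.29 (unadjusted p = 0.0320, edgeR adjusted p = 0.425). An unadjusted edgeR p under 0.05 was found for 1798 of 16505 genes tested. In the same list, Id1 had 0.28, Id3 -0.17, Smad6 -0.24 and Smad7 -0.19, so the direction was not shared. Without DMM replicate 4, Id2 had 0.35, Id1 0.51, Id3 0.03, Smad6 -0.01 and Smad7 0.004.

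Lists for single vascular beds and states were small. None of 7 arterial, 6 glomerular capillary, 6 tested activation or 6 lymphatic genes was called by edgeR over 10 or 8 libraries, and their median log2 fold changes over 10 libraries were -0.13, -0.17, 0.02 and -0.17. Among the glomerular genes, Tbx3, a transcription factor, had CPM values of 26.1, 22.0, 25.9, 20.8 and 15.1 with PBS and 17.6, 11.8, 12.9, 20.4 and 14.1 with DMM. The groups overlapped through PBS replicate 5 and DMM replicates 1 and 4. Its log2 fold change was -0.52 (unadjusted p = 0.0218, edgeR adjusted p = 0.397), whereas Ehd3 of the same bed had 0.20. Over the 8 libraries without DMM replicate 4, where 14.3% of all tested genes were called, Tbx3 was called at -0.70 (edgeR adjusted p = 0.0167). Vcam1, an adhesion molecule from the activation list, was called there at -0.90 (edgeR adjusted p = 0.00951). At a mean of 544 CPM it was the most abundant gene of that list, and bulk RNA does not show which cells carried it. Vcam1 had -0.16 over 10 libraries and -0.41 over the 8 (edgeR adjusted p = 0.852 and 0.554), and DMM replicate 4 was its highest library (855 CPM). Plat, which encodes tissue plasminogen activator, had a log2 fold change of -0.25, and Pi16 had -0.95, with 9.95 to 51.7 CPM in PBS kidneys. Over the 8 libraries they had -0.45 and -1.66 (edgeR adjusted p = 0.0776 and 0.177), and without DMM replicate 4 over the other 9, -0.21 and -0.67.

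Of the remaining named genes of these beds, the arterial genes Efnb2, Sema3g and Cxcl12 had log2 fold changes of -0.17, -0.12 and -0.34, and without DMM replicate 4 -0.26, 0.05 and -0.22. The activation genes Esm1, Icam1 and Sele had 0.41, -0.27 and 0.32 (0.40, -0.08 and 0.37 without it). Esm1, a secreted product of VEGF-stimulated tip cells, had 20.3 to 42.7 CPM with PBS and 28.5 to 48.4 CPM with DMM. The lymphatic genes Lyve1, Ccl21a and Reln had -0.50, -1.52 and 0.48 (-0.40, -1.20 and 0.16 without it), and Ccl21a was under 14 CPM in every library. Of these 9 genes, Esm1 had the lowest edgeR adjusted p, 0.513.

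Markers of cells that border the vessels or share their genes were followed beside the 10 endothelial genes. Mural cells, the pericytes and smooth muscle around vessels, had 0 of 10 genes called over 10 libraries, and over the 8 libraries 1 was lower, Myh11, with a log2 fold change of -0.67 (edgeR adjusted p = 0.0477). Over all 10 libraries Myh11 had -0.17 (edgeR adjusted p = 0.830), and DMM replicate 1, which the 8 leave out, was its highest library (156 CPM). The mural genes Notch3, Abcc9 and Des had log2 fold changes of 0.21, 0.48 and -0.20 over 10 libraries, and 0.13, 0.14 and -0.17 without DMM replicate 4. They had 0.16, 0.57 and -0.44 over the 8 libraries, where Des (edgeR adjusted p = 0.0439) fell short of the fold threshold. Podocytes, which supply VEGF to glomerular endothelium, had 0 of 7 genes called over 10 or 8 libraries. Magi2, Synpo and Nphs1 had 0.24, 0.10 and -0.10 (0.11, 0.09 and 0.01 without DMM replicate 4, and 0.29, -0.07 and -0.29 over the 8).

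Platelets carry Pecam1 and Vwf, and leukocytes carry Pecam1. The platelet list had 4 of 11 genes tested, with 0 called by edgeR over 10 or 8 libraries, and its summed CPM was 26.3, 45.2, 23.2, 83.0 and 81.6 with PBS and 67.9, 32.3, 30.1, 72.8 and 28.1 with DMM. Its most abundant gene was Itgb3, at a mean of 20.7 CPM, Gp1bb was at 0 in every library, and Gp5, Gp6 and Gp9 had at most 3, 2 and 7 counts in a library. The log2 fold changes of Pf4, Ppbp and Itgb3 were -0.44, -0.66 and 0.21, and without DMM replicate 4 -0.47, -1.01 and -0.11. Ppbp, at 0.900 to 48.1 CPM in PBS kidneys and 0.907 to 28.8 CPM in DMM kidneys, had -1.68 over the 8 libraries (edgeR adjusted p = 0.446) and was called at -3.31 over the 8 without DMM replicate 4 (edgeR adjusted p = 0.0468). PBS replicate 4, the highest library for Pecam1 and Vwf, had the highest platelet sum. PBS replicate 5 had nearly the same sum, with Pecam1 (167 CPM) and Vwf (33.2 CPM) below their PBS means (187 and 37.6 CPM). The part of platelets in the values of Pecam1 and Vwf was not tested.

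The leukocyte list had 0 of 10 genes called over 10 libraries and 1 lower over the 8, Cd68, a macrophage gene, with a log2 fold change of -0.97 (edgeR adjusted p = 0.0108). Its summed CPM was 1371, 1524, 1166, 1230 and 1497 with PBS and 1376, 1009, 771, 755 and 779 with DMM. Lyz2 was its most abundant gene, and none of its genes was at 0 in every library. Over all 10 libraries, the log2 fold changes were -0.72 for Cd68, -0.61 for Adgre1 and -0.62 for Ptprc (edgeR adjusted p = 0.378, 0.378 and 0.387). Pecam1 was at 0.05, and the part of leukocytes in its value was not tested.

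The interferon response list had a summed CPM of 3372, 1995, 2413, 3381 and 3228 with PBS, 2500 in DMM replicate 1 and 254 to 348 in DMM replicates 2 to 5. Its most abundant gene was Irf7, and 10 of 10 genes were lower over the 8 libraries, with 0 called over all 10. The log2 fold changes of Irf7 and Cxcl10 over the 8 libraries were -3.61 and -2.86 (edgeR adjusted p = 0.00119 and 0.000238). That of Irf7 over all 10 was -2.28 (edgeR adjusted p = 0.378). In DMM replicate 1, where the interferon sum was at the PBS level, the summed CPM of the 10 endothelial genes was 1443, the highest of the DMM kidneys, against 1198 to 1439 in the others. Whether the endothelial genes went with the interferon genes was not tested.

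The proximal tubule list had 3 of 10 genes higher over the 8 libraries (Lrp2, Cubn and Slc13a3) and 0 over all 10. Its summed CPM was 2827, 2918, 6822, 1209 and 2268 with PBS and 2087, 5587, 6952, 5180 and 8330 with DMM. In PBS replicate 3, with the highest tubule sum of the PBS kidneys, the summed endothelial CPM was 1336, close to the PBS mean of 1317. PBS replicate 4 had the lowest tubule sum of all libraries and the highest endothelial sum, 1489. Whether the endothelial genes went with the tubule genes was not tested.

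By a rule on likeness across the 10 libraries, the tested genes outside the lists whose log2 CPM went most closely with the mean standardised level of the 10 endothelial genes were Gm14296, Retnlg, Rgs7bp, Ccdc3 and A030001D20Rik. Their Pearson r ran from 0.899 to 0.928 over 10 libraries, and they were picked for it from all tested genes. Each had less than 7 CPM in every library, so these values rest on few counts. Among the 10 themselves, Pecam1 was closest to the mean (r = 0.970, Spearman rho 0.952), as a description that includes the gene itself. Over the 10 libraries Plvap had a negative r (-0.337), with a rho of 0.0667. This rested on DMM replicate 4, without which r was 0.684 for Plvap, 0.640 for Eng (0.297 over all 10) and -0.0659 for Ehd3 (0.267 over all 10). With the 2 libraries farthest from the median of that level left out instead (PBS replicate 1 and DMM replicate 2), r was -0.636 for Plvap, -0.567 for Eng and 0.0998 for Ehd3.

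Kdr, Flt1, Tek and Ehd3 were highest in DMM replicate 4, and the promoters of the first 3, the receptor genes, are shown. The RefSeq table (GRCm38.p6, from 250 bases before to 50 after the start) matched 6 of the 10 genes, and had no entry for Pecam1, Cdh5, Plvap or Vwf. The letters GGAA or, on the other strand, TTCC, the core that ETS factors such as ERG and FLI1 of endothelium recognise, are in capitals. The regions are chr5:75978406-75978705 on the minus strand for Kdr, chr5:147725962-147726261 on the minus strand for Flt1 and chr4:94739039-94739338 on the plus strand for Tek, each 5′ to 3′ along the gene.
Kdr: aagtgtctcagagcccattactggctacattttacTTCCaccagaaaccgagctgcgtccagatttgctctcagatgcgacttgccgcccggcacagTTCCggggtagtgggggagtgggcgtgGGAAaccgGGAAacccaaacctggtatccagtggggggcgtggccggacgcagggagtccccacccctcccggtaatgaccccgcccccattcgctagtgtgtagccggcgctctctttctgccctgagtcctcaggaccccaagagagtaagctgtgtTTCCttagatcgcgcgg
Flt1: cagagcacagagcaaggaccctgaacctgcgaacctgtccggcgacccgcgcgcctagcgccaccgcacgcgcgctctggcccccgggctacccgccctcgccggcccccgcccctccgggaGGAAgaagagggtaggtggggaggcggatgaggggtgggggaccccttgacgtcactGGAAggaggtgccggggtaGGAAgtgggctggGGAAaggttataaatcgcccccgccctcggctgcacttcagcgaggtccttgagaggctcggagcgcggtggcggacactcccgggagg
Tek: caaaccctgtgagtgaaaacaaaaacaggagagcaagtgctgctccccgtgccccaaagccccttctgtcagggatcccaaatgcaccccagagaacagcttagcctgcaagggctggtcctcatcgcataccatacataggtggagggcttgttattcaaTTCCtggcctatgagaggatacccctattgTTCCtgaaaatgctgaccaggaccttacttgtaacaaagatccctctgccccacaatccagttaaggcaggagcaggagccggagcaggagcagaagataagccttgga
The core occurred 5 times in the Kdr window, 4 times in that of Flt1 and 2 times in that of Tek. Of the windows not shown, it occurred 6 times in that of Emcn and 4 times each in those of Ehd3 and Eng. The Ehd3 window was placed on a start 707 bases from the deposited gene start, against 0 to 11 bases for the others. Of 32851 promoter windows of the same length, 96.0% held it at least once, with a median of 3, so its presence does not set these genes apart. The GC content of the windows was 60.7% for Kdr, 70.7% for Flt1 and 52.0% for Tek.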

How the data were processed

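Kidney RNA from 10 mice was sequenced, with a single library per mouse. Reads were aligned with HISAT2 2.0.5 according to the submitters' processing notes, to mm10. The authors deposited a count of reads per gene, without normalization, for each library. The FPKM that the authors deposited divide the count by gene length and by a size for each library that differs from its total count. They were used for levels between genes only. The group means the authors deposited are a signal in size-factor-scaled counts, used only to find which libraries they weight. The authors' own fold changes and p-values were not used here. The counting tool and strand setting are not given in the sources used here.

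Genes were kept by filterByExpr, scaled by TMM and tested with edgeR 4.0.16 (quasi-likelihood F test, R 4.3.3) over all 10 libraries, with Benjamini-Hochberg adjustment over all tested genes. DESeq2 1.42.0, other scalings and filters, the 8 libraries, a replicate block and leaving out each library were the alternatives. Offsets for GC content and length were added after seeing the data. GC content and positions were taken from GENCODE M21 transcripts, and log2 CPM used a prior count of 2. The script for the tests was tested on simulated data. The members and lists were chosen with earlier results of these data known. The named genes are the 10 members, the 3 tested genes of smallest p in each other list, and the 5 genes most like the members, with others named where said and some of these genes not reported here. Ccl21a has 2 entries in the table, of which the one with more counts was used.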

Additional observations from a re-analysis of the deposited data

Results flagged for a closer look

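For 5 sets of values among the 10 endothelial genes, 1 mouse lay far from the other 4 of its group, with a gap to the nearest library of over 0.710 of the group's range (Dixon). Chance gives such a gap in about 1 in 20 groups. DMM replicate 4 was high for 3 receptor genes, at 132 CPM for Kdr (83.4 to 95.6 in the other DMM kidneys), 246 CPM for Flt1 (87.0 to 112) and 110 CPM for Tek (56.4 to 70.8). Without it the log2 fold changes of Kdr, Flt1 and Tek were 0.06, 0.12 and -0.03. PBS replicate 4 was low for Ehd3, at 38.5 CPM against 44.9 to 46.5 in the other PBS kidneys. DMM replicate 2 was low for Vwf, at 19.9 CPM against 32.8 to 37.5 in the other DMM kidneys. Among 130 listed genes tested, the same gap was found for DMM replicate 4 in 20 genes, for DMM replicate 1 in 13 and for PBS replicate 3 in 7. The cause was not tested.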

How the results depend on the processing

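None of the 10 endothelial genes was called in any of the 31 alternative fits, and the wider endothelial, VEGF and angiopoietin, BMP9 and Notch, arterial, lymphatic and podocyte lists had 0 genes called in each of them. Flt1, Kdr, Ehd3 and Vwf kept their direction in all 31. The numbers of genes called higher and lower across the genome were 452 and 590 over the 8 libraries, 14 and 36 with DESeq2, 749 and 911 with DESeq2 on the 8, 276 and 700 with library size alone on the 8, and 591 and 754 with GC and length offsets on the 8. In the same order of the 4 settings on 8 libraries (edgeR, DESeq2, library size alone, offsets), mural genes called numbered 1, 1, 1 and 1, leukocyte genes 1, 4, 3 and 4, proximal tubule genes 3, 9, 3 and 8, and interferon genes 10 in each. DESeq2 on the 8 called 1 glomerular gene (Pi16). Leaving out each library in turn gave 0 to 1129 genes higher and 0 to 1281 lower, both highest without DMM replicate 4 in the 8 libraries, and over 9 libraries 50 and 436 without DMM replicate 1. In those fits, activation, glomerular, platelet and mural lists had 0 to 1 called, leukocyte 0 to 4, proximal tubule 0 to 9 and interferon 0 to 10. The median log2 fold change of the 10 genes ran from -0.07 to 0.13 when a library was left out, and was -0.10 with library size alone on the 8, where the median of all genes also moved, from 0.02 to -0.09. Signs turned for Pecam1 (-0.0433 with library size alone, -0.0929 with it on the 8), Plvap (0.0458 with offsets, 0.0915 with them on the 8) and Eng (-0.00567 over the 8 in edgeR and -0.00518 in DESeq2, -0.0347 with library size alone, -0.115 with it on the 8). With a library left out, the log2 fold changes ran from -0.0675 to 0.15 for Pecam1, -0.29 to 0.12 for Cdh5, -0.13 to 0.00952 for Emcn, -0.0441 to 0.31 for Tek, -0.24 to 0.18 for Plvap and -0.0758 to 0.0876 for Eng. The causes were not tested. With the replicate number as a block, 0 genes were called over 10 libraries and 0 over the 6 of the 8 whose numbers occur in both groups, where Pecam1 was at -0.0507 and Eng at -0.14, and the block with offsets gave 0.0253 for Cdh5 and 0.0383 for Plvap. Mice with the same number did not deviate together in every case (r = -0.06, 0.08, 0.34, 0.12 and -0.22), and only PBS replicate 2 was closest to the DMM mouse of its own number, so the block rests on a shared number alone. By CPM per kb of the longest transcript, Pecam1 and Cdh5 changed places in the order of levels, as did Kdr and Tek, which were nearly equal. Each of the 10 genes had at least 316 counts in every library, whereas Gdf2 and Bmp10 were too low to be tested at this depth.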
